A study of Mus musculus with 5 samples.

Results

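Acute phase, complement and STAT3 response genes were followed in ID8 cells, a mouse ovarian surface epithelial cancer line, through every probe set that the platform annotation assigns to exactly 1 gene of a list of 10. The rule found 22 probe sets of 9 genes, of 12393 genes named on the array. The acute phase genes were Saa3, Lcn2, Hp and Cp, and complement was represented by Cfb alone. The signalling genes were the receptor subunits Osmr and Il6st, the transcription factor Stat3 and its feedback inhibitor Socs3. The remaining gene of the list is not analysed here. The study set ID8 cells grown for 7 days in DMEM with 10% ascites, taken from mice bearing ID8 tumours (2 arrays, replicates 2 and 3), against parental ID8 cells in DMEM with 10% fetal bovine serum (FBS; 3 arrays, replicates 1, 2 and 3). All cells were of 1 line, and the labels name no engineered allele. They do not say how long the FBS cells were cultured, whether the ascites medium also held serum, or whether replicates were separate cultures, so p-values measure a spread between arrays that may be technical.

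The acute phase response is the change in secreted plasma proteins that follows inflammation or injury. The liver is its main site, but epithelial cells make some of the same proteins. Cytokines of the interleukin-6 family bind receptors that share the subunit gp130, the product of Il6st. The receptors activate Janus kinases, which phosphorylate STAT3, and STAT3 enters the nucleus and induces its targets, among them Socs3, whose product shuts the receptor off again. NF-kappaB and C/EBP factors act together with STAT3 on many acute phase genes.

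Levels are array signals on the log2 scale. Each change is the ascites mean less the FBS mean, with a standard error (SE). A gene is said to have risen or fallen only where limma's adjusted p over all genes was under 0.05. FBS replicate 3 stood apart from FBS replicates 1 and 2, with an SD over genes of 0.427 from each, whereas replicates 1 and 2 differed from each other by 0.117. The ascites arrays differed from each other by 0.239, and from the FBS arrays by 0.508 to 0.6. In bulk RNA, fewer cells of a type and less RNA per cell cannot be told apart. Most markers of the labelled cell type were bright in both groups. Of 11 mesothelial and ovarian surface epithelial markers 10 were measured, with a median level of 11.34 in ascites and 12.29 in FBS. Averaged over all arrays, Upk3b, a mesothelial membrane protein gene, was the brightest, at 11.67 in ascites and 13.97 in FBS. In ascites alone the mesothelin gene Msln was brighter, at 12.51. Exceptions were the keratin gene Krt7, which averaged 5.24 in ascites and 7.25 in FBS, and the E-cadherin gene Cdh1, which averaged 5.80 in ascites and 5.74 in FBS. The means of 8 of the 10 markers were lower in ascites, with a median change of -1.19, and the keratin genes Krt18 (-1.43, adjusted p = 0.0361) and Krt19 (-0.88, adjusted p = 0.0428) fell. Their part in the members' values was not tested.

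The 9 genes did not move as one. Saa3 rose in ascites, Cp and Socs3 fell, and the other 6 did not pass the threshold. Of the 12393 genes tested, 5.28% passed, 2.69% upward and 2.59% downward. The ascites and FBS arrays did not overlap for 8 of the 9 genes, 2 higher and 6 lower in ascites, where the same held for 38% of all genes (18.6% higher and 19.4% lower). The median log2 change of the 9 genes was -0.88, against 0 over all genes. The calls depended on the arrays. Without FBS replicate 1 or without FBS replicate 2, none of the 9 genes passed. The same held with FBS replicates 1 and 2 averaged as 1 sample. In each of these fits 0 of all 12393 genes passed, and 3 to 4 of the 9 had an unadjusted p below 0.05 in limma. The changes themselves moved little, at 1.86 to 1.98 for Saa3, -1.24 to -1.21 for Cp and -1.09 for Socs3. These fits, like the one without FBS replicate 3, had fewer residual degrees of freedom than the fit to all arrays. Without FBS replicate 3, 6 of the 9 passed, 1 upward and 5 downward, when 20.1% of all genes did (9.17% upward and 10.9% downward).

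**Figure D1:**
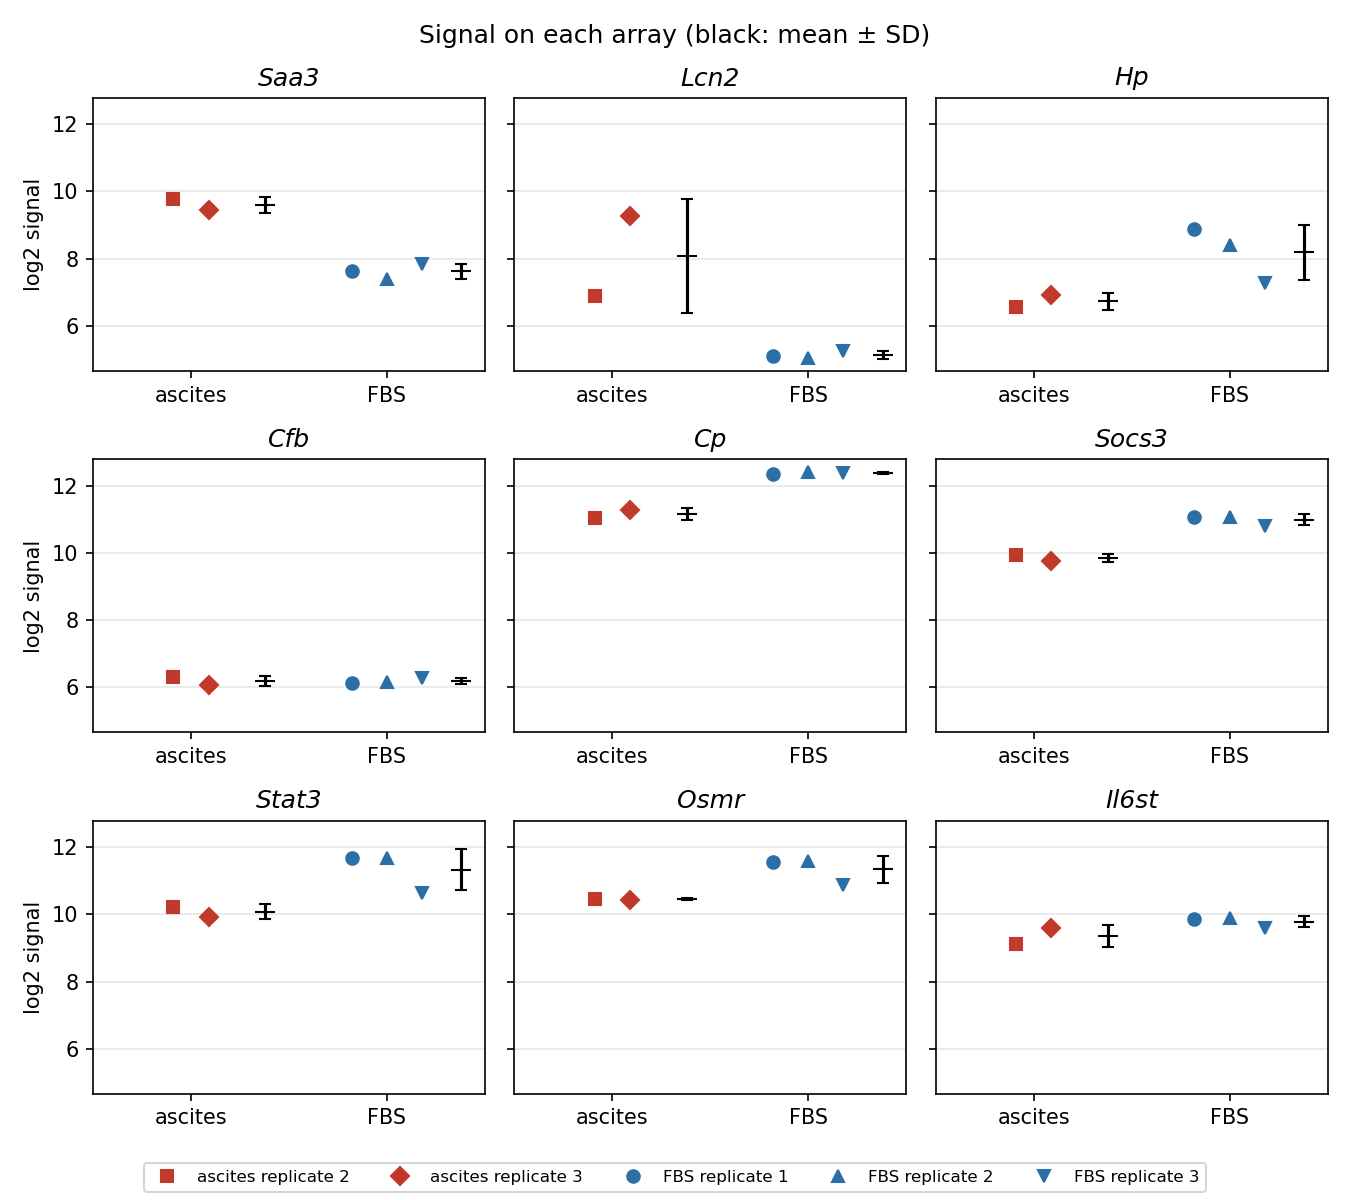
Log2 signal (vertical axis, same range in every panel) of each of the 9 genes on each array, with the 2 ascites arrays on the left and the 3 FBS arrays on the right, and mean ± SD in black. Saa3 and Lcn2 lie higher on both ascites arrays, Cfb overlaps, and the other 6 genes lie lower. FBS replicate 3 (downward triangle) lies between the ascites arrays and the other FBS arrays for Hp, Stat3, Osmr and Il6st. For Socs3 it also lies between them, but closer to the other FBS arrays.

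Promoter sequences are shown for the members that passed the threshold and for Lcn2, whose arrays also did not overlap, because these are the members whose start regions held a motif of a factor of the pathway. They are from RefSeq (GRCm38.p6), run from 250 bases before to 50 bases after the annotated start, are written 5′ to 3′ along the gene's strand, and have the motif match in capitals. The windows are chr7:46715627-46715926 on the minus strand for Saa3, chr2:32387690-32387989 on the minus strand for Lcn2, chr3:19956999-19957298 on the plus strand for Cp and chr11:117969317-117969616 on the minus strand for Socs3.
Saa3: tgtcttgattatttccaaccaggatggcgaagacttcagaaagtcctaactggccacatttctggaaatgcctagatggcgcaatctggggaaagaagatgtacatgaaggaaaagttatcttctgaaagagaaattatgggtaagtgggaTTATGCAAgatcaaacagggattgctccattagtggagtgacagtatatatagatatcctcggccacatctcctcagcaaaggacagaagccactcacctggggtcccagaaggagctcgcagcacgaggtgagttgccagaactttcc
Lcn2: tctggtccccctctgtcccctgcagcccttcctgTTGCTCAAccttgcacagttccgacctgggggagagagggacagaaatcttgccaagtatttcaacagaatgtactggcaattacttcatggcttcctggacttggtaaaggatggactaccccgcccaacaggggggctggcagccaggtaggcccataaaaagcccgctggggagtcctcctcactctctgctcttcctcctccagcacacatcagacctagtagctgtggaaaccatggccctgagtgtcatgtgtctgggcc
Cp: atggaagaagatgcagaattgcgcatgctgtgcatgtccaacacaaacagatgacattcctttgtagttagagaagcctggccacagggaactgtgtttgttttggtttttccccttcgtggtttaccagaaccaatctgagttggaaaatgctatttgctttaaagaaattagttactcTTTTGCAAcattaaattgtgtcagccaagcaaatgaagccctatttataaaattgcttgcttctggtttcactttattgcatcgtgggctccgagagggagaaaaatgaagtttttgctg
Socs3: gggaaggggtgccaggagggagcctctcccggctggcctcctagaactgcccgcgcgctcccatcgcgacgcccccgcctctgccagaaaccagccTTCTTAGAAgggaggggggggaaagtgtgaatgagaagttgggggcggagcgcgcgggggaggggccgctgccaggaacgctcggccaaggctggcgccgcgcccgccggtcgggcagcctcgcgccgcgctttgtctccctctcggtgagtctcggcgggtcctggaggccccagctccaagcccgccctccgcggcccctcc

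RefSeq windows were found for 7 of the 9 genes (8 windows, 2 of them for Cp), and not for Hp and Cfb. A C/EBP motif (TTGCNNAA, both strands) was present in the windows of Saa3, Lcn2 and Cp, beginning 99, 216 and 70 bases before the start, in 3 of 8 windows. The same motif was present in 10.8% of 32851 windows of all genes. A STAT motif (TTCNNNGAA, which reads the same on both strands) was present in the window of Socs3, beginning 154 bases before the start, and in 8.3% of all windows. A kappaB motif, searched on both strands, was present in 0 of the 8 windows and in 8.46% of all windows. The windows of Stat3, Osmr and Il6st, and the other window of Cp, held none of the 3 motifs. A match describes the letters only. Of the genes with the C/EBP motif Saa3 rose, Cp fell and Lcn2 did not pass, and the part of the motif in these changes was not tested.

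Saa3, a serum amyloid A protein that epithelial cells and macrophages make outside the liver, was the member that rose. Its signal was 9.77 and 9.43 on the ascites arrays, against 7.62, 7.38 and 7.85 on FBS replicates 1, 2 and 3. Both ascites arrays were higher than every FBS array, by at least 1.58, and the FBS arrays lay close together. Saa3 was higher by 1.98 (SE 0.19, 95% confidence interval 1.48 to 2.48), a 3.95-fold difference, with an adjusted p of 0.0218. By size of change it ranked 125th of 12393 genes. Without FBS replicate 3 the change was 2.10 (adjusted p = 0.0144).

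Lcn2, lipocalin 2, a secreted protein that binds bacterial iron carriers, was also higher on both ascites arrays, but these differed widely. It read 6.88 and 9.28 on ascites replicates 2 and 3, against 5.09, 5.05 and 5.25 on the FBS arrays. The FBS values lay within the range of median levels of 6 lists of markers of other cell types in FBS (4.26 to 5.49), so no fold is stated against a signal that may be background. The difference in signal of 2.95 (SE 0.75, interval 0.93 to 4.97) did not pass (adjusted p = 0.106), and the SD of the ascites arrays was 1.70. The difference was 4.15 without ascites replicate 2 and 1.75 without ascites replicate 3. Each of these fits has 1 ascites array, so it does not measure the ascites spread and no p is given. If the FBS signal is background, each of these differences understates the change. With array weights the difference was 3.01 and passed (adjusted p = 0.0365).

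Cp encodes ceruloplasmin, a copper-carrying ferroxidase of plasma, and fell. Its brightest probe set read 11.04 and 11.28 in ascites, against 12.34, 12.40 and 12.39 in FBS. The groups were 1.06 apart at their closest, and the 3 FBS arrays agreed within an SD of 0.03. The change was -1.22 (SE 0.09, interval -1.46 to -0.98), so that the signal was 2.32-fold higher in FBS, with an adjusted p of 0.0177. FBS replicate 3 differed from the mean of replicates 1 and 2 by only 0.02 for this probe set, and without it the change was -1.21 (adjusted p = 0.0157).

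The 7 probe sets of Cp did not all tell the same story. In the test over all 22626 probe sets, of which 4.34% passed (2.38% upward and 1.96% downward), 4 of the 7 fell, by changes of -1.36 to -1.21. Probe set 1417496_at changed by -0.78 (SE 0.13, adjusted p = 0.0575), with no overlap between groups. The remaining pair, 1417497_at and 1448735_at, were the dimmest and the most scattered. Probe set 1417497_at read 6.59 and 6.93 in ascites, against 7.72, 7.42 and 6.22 in FBS. Probe set 1448735_at read 7.81 and 7.95 in ascites, against 8.24, 8.37 and 6.56 in FBS. In both, FBS replicate 3 was the lowest of the 5 arrays, whereas on the 4 probe sets that fell it was close to or above the other FBS arrays. With the mean over all its probe sets in place of the brightest one, Cp changed by -0.87 and did not pass (adjusted p = 0.0609).

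Hp encodes haptoglobin, which binds free haemoglobin. It read 6.55 and 6.90 in ascites, against 8.88, 8.40 and 7.26 in FBS. Both ascites arrays were lower than every FBS array, but FBS replicate 3 lay only 0.36 above the higher of them, and its difference from the mean of the other FBS arrays was -1.38. The change of -1.46 (SE 0.53, interval -2.88 to -0.03) did not pass (adjusted p = 0.200). Without FBS replicate 3 it was -1.92 and passed (adjusted p = 0.0270).

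Cfb, complement factor B, supplies the protease of the alternative pathway convertase. It read 6.29 and 6.08 in ascites, against 6.12, 6.17 and 6.28 in FBS, and the groups overlapped. The change was -0.01 (SE 0.09, interval -0.26 to 0.25, adjusted p = 0.987). The interval leaves room for a change of up to 0.26 on the log2 scale in either direction. The signal lay little above the medians of the other cell type lists (4.23 to 5.53 in ascites, 4.26 to 5.49 in FBS), and a dim probe set understates a change.

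Socs3, the feedback inhibitor that binds gp130 and the Janus kinases, fell. Its brightest probe set read 9.94 and 9.76 in ascites, against 11.08, 11.08 and 10.80 in FBS. The groups were 0.86 apart at their closest. The change was -1.14 (SE 0.12, interval -1.47 to -0.80), so that the signal was 2.20-fold higher in FBS, with an adjusted p of 0.0263. All 3 of its probe sets were lower on both ascites arrays than on any FBS array. In the probe set test 1416576_at changed by -1.30 (adjusted p = 0.0241) and 1456212_x_at by -1.18 (SE 0.20, adjusted p = 0.0578), the first past the threshold and the second not. Without FBS replicate 3 the change of the gene was -1.23 (adjusted p = 0.0114).

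Stat3, the transcription factor that also induces its own gene, was lower in ascites without passing. It read 10.23 and 9.92 in ascites, against 11.69, 11.67 and 10.63 in FBS. The groups did not overlap, but FBS replicate 3 lay only 0.40 above the nearest ascites array, and its difference from the mean of the other FBS arrays was -1.05. The change was -1.26 (SE 0.39, interval -2.31 to -0.20, adjusted p = 0.152). A second bright probe set, 1426587_a_at, had almost the same pattern, with 9.77 on both ascites arrays, against 11.40, 11.46 and 10.33 in FBS. The third, 1424272_at, was dim and changed by -0.23 (SE 0.11, adjusted p = 0.320). Without FBS replicate 3 the gene changed by -1.60 and passed (adjusted p = 0.0143).

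Osmr is the receptor subunit that pairs with gp130 to bind oncostatin M. Its bright probe set read 10.47 and 10.44 in ascites, against 11.55, 11.60 and 10.86 in FBS. FBS replicate 3 again lay between the ascites arrays and the other FBS arrays, from whose mean it differed by -0.71. The change of -0.88 (SE 0.26, interval -1.58 to -0.18) did not pass (adjusted p = 0.139), and without FBS replicate 3 it was -1.12 and passed (adjusted p = 0.00737). The second probe set, at a signal of 5.39 to 5.99, changed by -0.18 (SE 0.21), and with the mean of both the change of the gene was -0.53 (adjusted p = 0.259).

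Il6st, the shared gp130 subunit, differed least among the signalling members. Its brightest probe set read 9.12 and 9.58 in ascites, against 9.87, 9.89 and 9.60 in FBS, so that the groups were separated by only 0.02. The change was -0.44 (SE 0.18, interval -0.92 to 0.05, adjusted p = 0.245), and -0.53 (adjusted p = 0.165) without FBS replicate 3. It was -0.21 without ascites replicate 2 and -0.67 without ascites replicate 3, each from a fit with 1 ascites array. With the mean over its probe sets it was -0.15. Its other probe sets changed by 0.01 and -0.02, with the groups overlapping.

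**Figure D2:**
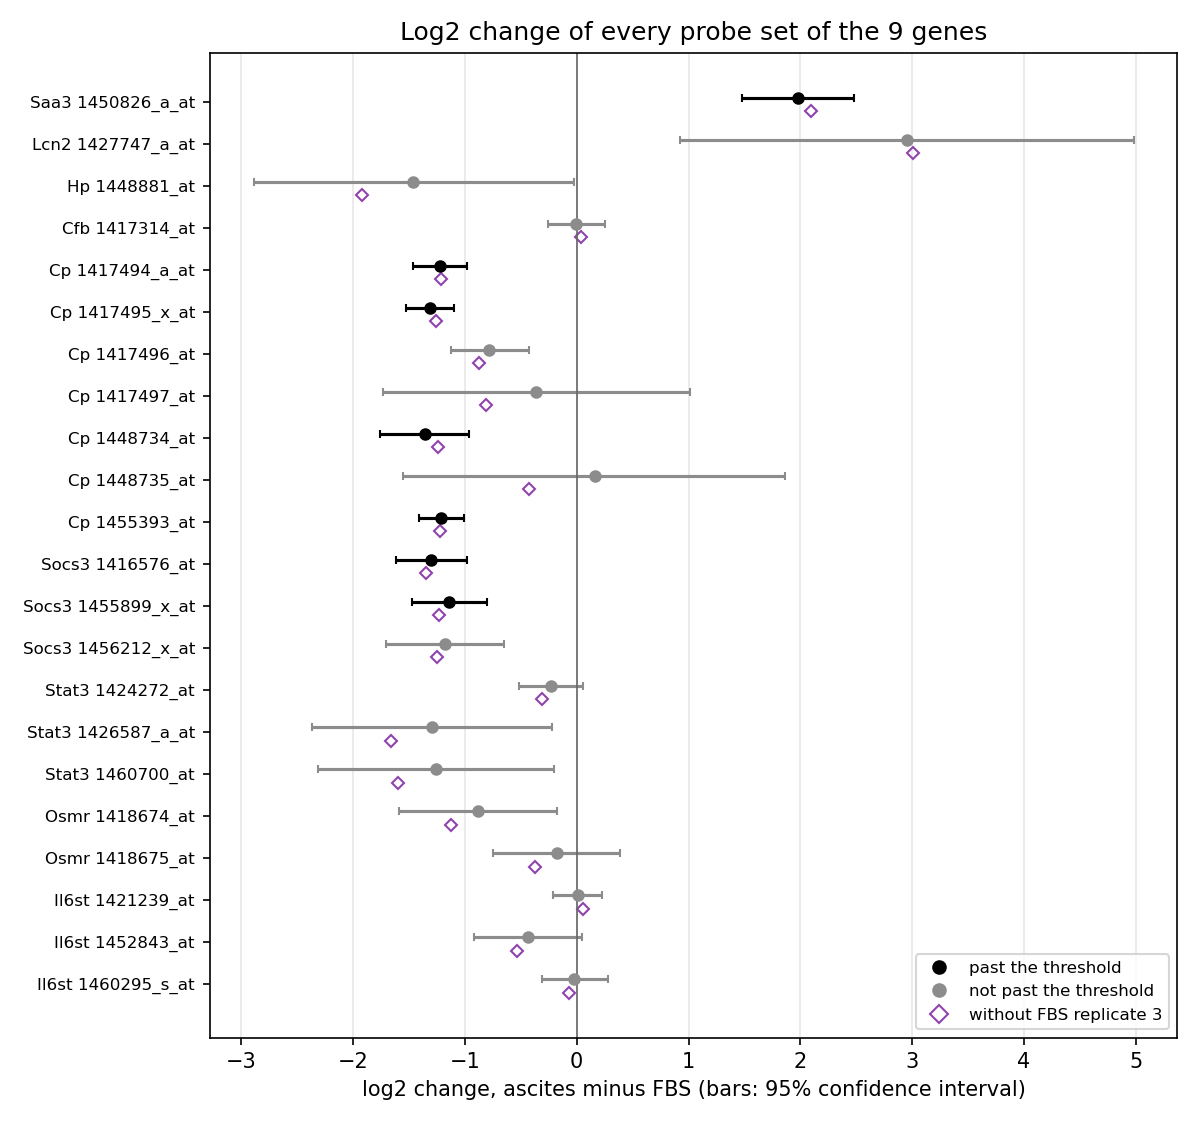
Log2 change (ascites minus FBS, horizontal axis) of each of the 22 probe sets, with 95% confidence intervals. Black marks the 7 past the threshold over all probe sets (1 risen and 6 fallen) and grey the other 15, and open diamonds give the change without FBS replicate 3, when 12 passed.

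Over all 22 probe sets, 1 rose and 6 fell. The groups did not overlap for 15 of them, 2 higher and 13 lower in ascites, where 36.5% of all probe sets did not overlap (19.3% higher and 17.2% lower). Without FBS replicate 3, 12 of the 22 passed, 1 upward and 11 downward, where 15.7% of all probe sets did (7.48% upward and 8.25% downward). Probe sets of 1 gene share their transcript and are not replicates. Within Cp, Stat3, Osmr and Il6st, the dimmest probe sets had smaller changes than the brightest one.

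The members lower in ascites differed in where FBS replicate 3 lay. Its distance from the mean of FBS replicates 1 and 2 was -1.38 for Hp, -1.05 for Stat3 and -0.71 for Osmr, in the direction of the ascites arrays. It was -0.28 for Socs3 and Il6st, and 0.02 for Cp. For Saa3 and Lcn2 it was 0.35 and 0.18. The ascites mean less FBS replicate 3 alone was -1.23 for Cp and -0.95 for Socs3. It was only -0.56 for Stat3, -0.54 for Hp, -0.40 for Osmr and -0.25 for Il6st. For Il6st, FBS replicate 3 lay only 0.02 above the higher ascites array. The 10 mesothelial and ovarian surface epithelial markers also differed on FBS replicate 3 from the other FBS arrays, by a median of -0.64, and the part of this in the members' values was not tested.

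**Figure D3:**
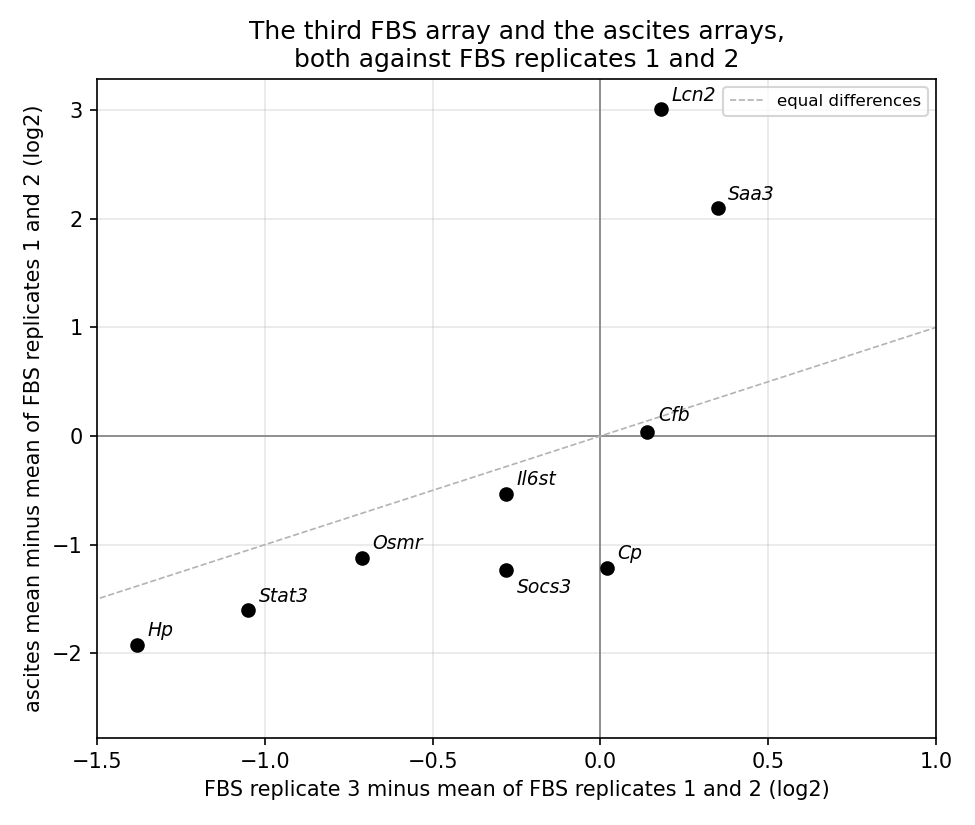
Difference of FBS replicate 3 (horizontal axis) and of the ascites mean (vertical axis) from the mean of FBS replicates 1 and 2, in log2, for the 9 genes, with the line of equal differences dashed. Hp, Stat3 and Osmr lie to the left (-1.38, -1.05 and -0.71), whereas Socs3, Il6st, Cp, Saa3, Lcn2 and Cfb lie within 0.35 of 0 on that axis.

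The other genes of the pathway were taken from 8 lists, of which 132 genes were measured. Of these 5 rose and 5 fell, or 7.58%, where 5.28% of all genes passed. Without FBS replicate 3, 16 of the 132 rose and 19 fell, where 20.1% of all genes passed (9.17% upward and 10.9% downward). The classical acute phase genes other than the members were mostly dim and flat, with median levels of 4.89 in ascites and 4.97 in FBS. None of 25 passed in limma, 1 had an unadjusted p below 0.05 and the list median was 0.02. The liver serum amyloids Saa1 and Saa2 changed by 0.02 and 0.07 at signals of 3.89 to 5.70. The orosomucoid genes, the fibrinogen genes and Crp were similarly dim. A brighter one, named after its values were seen, was Il1rn, an interleukin-1 receptor antagonist, at 8.95 and 8.81 in ascites, against 9.31, 9.35 and 10.14 in FBS (change -0.72, SE 0.30, adjusted p = 0.245). The gene with the smallest p, the fibrinogen chain gene Fgg, changed by -0.20 (adjusted p = 0.138).

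Among 21 complement components and receptors none passed (5 at an unadjusted p below 0.05, list median -0.07). The one with the smallest p, C9, changed by 0.26 (adjusted p = 0.0826). Named after their values were seen, C1s1, a protease of the classical pathway, read 9.57 on both ascites arrays, against 13.13, 13.15 and 10.55 in FBS (change -2.71, SE 0.93, adjusted p = 0.181), and Masp1, a lectin pathway protease, read 8.70 and 8.89, against 8.01, 7.92 and 7.11 (1.12, SE 0.32, adjusted p = 0.129). Both groups of arrays were apart for each, and FBS replicate 3 was the lowest FBS array in each. It lay toward the ascites arrays for C1s1 and away from them for Masp1. Without it the changes were -3.57 for C1s1 and 0.83 for Masp1 (adjusted p = 0.00728 and 0.0217).

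Of 9 complement regulators 1 passed (11.1%, where 5.28% of all genes did). This was Cr1l, which encodes the rodent membrane inhibitor Crry and rose. It read 11.44 and 11.71 in ascites, against 10.65, 10.64 and 10.47 in FBS (change 0.99, SE 0.11, adjusted p = 0.0296). Cd55, which speeds the decay of the convertases, read 8.92 and 8.35 in ascites, against 11.50, 11.48 and 10.37 in FBS, and its change of -2.48 (SE 0.44) missed the threshold (adjusted p = 0.0575). Cd59a, an inhibitor of the membrane attack complex, was higher by 1.04 (adjusted p = 0.0785). Cd55 and Cd59a were also chosen after their values were seen.

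Among the other receptors, Janus kinases and STAT factors, 2 of 11 fell and none rose (18.2%, where 5.28% of all genes passed). The list median was -0.22. Lifr, the subunit that pairs with gp130 to bind leukaemia inhibitory factor, read 7.24 and 7.32 in ascites, against 9.59, 9.83 and 10.43 in FBS, a change of -2.67 (SE 0.27, adjusted p = 0.0245). Stat5b read 8.32 and 8.24 in ascites, against 8.97, 9.07 and 8.96 in FBS (change -0.72, SE 0.06, adjusted p = 0.0209), and with the mean over its probe sets its change was -0.44 (adjusted p = 0.0307). FBS replicate 3 lay above the other FBS arrays for Lifr and close to them for Stat5b. Il6ra, Jak1 and Jak2 changed by -0.27, -0.22 and -0.03 and did not pass.

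None of 5 cytokines of the family passed (1 at an unadjusted p below 0.05). The one with the smallest p, Ctf1 (cardiotrophin), changed by -0.73 (SE 0.24, adjusted p = 0.167). Il6 itself was dim, at 3.83 and 3.64 in ascites and 3.51, 3.51 and 3.21 in FBS, and Lif changed by -0.07 at a signal of 9.18 to 9.38. Of 15 inhibitors of STAT signalling 1 passed (6.67%, where 5.28% of all genes did). This was Pias1, which fell (change -0.69, SE 0.09, adjusted p = 0.0382). With the mean over its probe sets the change was -0.33 and did not pass (adjusted p = 0.105), nor did Pias1 pass with an intensity trend (adjusted p = 0.0508). None of the other SOCS family genes on the list passed. Socs1 changed by -0.04, Socs2 by 1.60 (SE 0.50, adjusted p = 0.154) and Cish by -1.31 (SE 0.46, adjusted p = 0.186).

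Genes known as STAT3 targets in other cells moved in both directions. Of 20 measured, 3 rose and 2 fell (25%), where 5.28% of all genes passed. The list median was -0.06. In limma 13 of the 20 had an unadjusted p below 0.05, where 3004 of all 12393 genes did, and no test of the list was made. Vegfa, an angiogenic growth factor, rose (10.96 and 11.29 in ascites, against 9.39, 9.11 and 9.24 in FBS, change 1.88, adjusted p = 0.0177). Ccnd1, cyclin D1, rose by 1.17 (adjusted p = 0.0158), and Birc5, survivin, fell by 1.54 (adjusted p = 0.0433). The other 2 were the transcriptional repressor gene Bcl6, which rose (0.68), and the survival gene Mcl1, which fell (-0.68). With the mean over probe sets neither passed: Bcl6 changed by 0.56 (adjusted p = 0.0981) and Mcl1 by -0.31 (adjusted p = 0.232). Bcl6 also did not pass with an intensity trend (adjusted p = 0.0530). Cebpd, a C/EBP factor of the acute phase response, read 7.88 and 7.83 in ascites, against 10.53, 10.48 and 8.54 in FBS, a change of -1.99 (SE 0.71) that did not pass (adjusted p = 0.190), and Cebpb changed by -0.20. Many of these genes answer to other pathways too.

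Of 26 NF-kappaB subunits, inhibitors and targets, 1 rose and none fell (3.85%, where 5.28% of all genes passed). The list median was 0.01. The gene that rose was Vcam1, an adhesion molecule (7.65 and 7.76 in ascites, against 6.92, 7.10 and 7.17 in FBS, change 0.64, adjusted p = 0.0451). With the mean over its probe sets the change was 0.42 and did not pass (adjusted p = 0.105), nor did Vcam1 pass with an intensity trend (adjusted p = 0.0508). The inhibitor gene Nfkbia changed by 0.19 and Tnfaip3, which was dim, by 0.01, and the NF-kappaB subunit gene Rela by -0.06. Larger changes that did not pass were 1.56 for Ccl20, 0.96 for Ptgs2 (adjusted p = 0.052), 0.56 for Tnfaip2 and -1.88 for Ccl2. In the list 4 genes were higher and 3 lower in ascites with no overlap between groups. Of the 26, 6 rose and 0 fell without FBS replicate 3, where 9.17% of all genes rose and 10.9% fell.

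**Figure D4:**
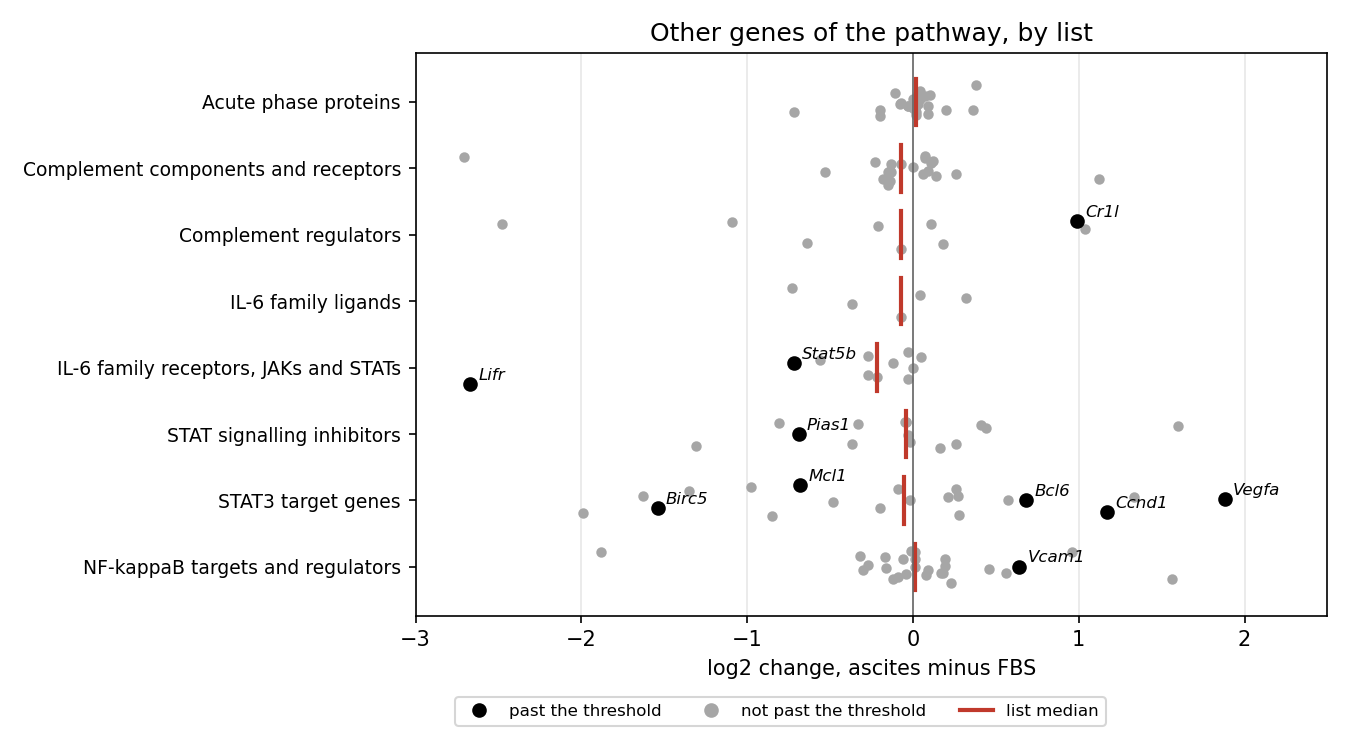
Log2 change (ascites minus FBS, horizontal axis) of the other measured genes of the pathway in 8 lists, with genes past the threshold in black and named, the rest in grey, and the list median as a red bar. Most acute phase genes lie near 0, and Lifr (-2.67) and Vegfa (1.88) lie farthest out among those past the threshold.

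Markers of most other cell types that could carry acute phase transcripts were low in both groups, with an exception in the fibroblast list. None of 47 measured markers of 6 other cell types passed in limma, and 6 had an unadjusted p below 0.05. The hepatocyte marker of smallest p was Ahsg, which changed by -0.76 (adjusted p = 0.0699). For macrophages it was Fcgr3 (-0.51, adjusted p = 0.163) and for neutrophils S100a9 (-0.17, adjusted p = 0.320). For lymphocytes it was Cd3d (0.18, adjusted p = 0.118) and for endothelium Tie1 (0.19, adjusted p = 0.194). The summed signal of the 8 hepatocyte markers was 8.56 on both ascites arrays, against 8.71 to 8.75 in FBS, on the log2 scale. That of 10 macrophage markers was 8.74 to 8.91 in ascites, against 8.74 to 8.86 in FBS, and that of 8 neutrophil markers 8.59 to 8.63 in ascites, against 8.58 to 8.65 in FBS. The brightest markers of these 3 lists were Ttr (6.81), Csf1r (6.59) and Camp (7.14), averaged over all arrays. The sums of the lymphocyte and endothelial lists were 7.34 to 8.71 in ascites, against 7.31 to 8.70 in FBS. In the fibroblast list the summed signal was 12.67 to 13.13 in ascites, against 12.87 to 14.35 in FBS. Its brightest gene was Dcn, which encodes the matrix proteoglycan decorin and read 13.09 and 12.62 in ascites, against 14.32, 14.30 and 12.81 in FBS (change -0.96, adjusted p = 0.398). The collagen gene Col1a1 averaged 6.04 in ascites and 7.48 in FBS (-1.44, adjusted p = 0.0683), and the other 5 fibroblast markers read at most 5.91. The part of the fibroblast markers in the members' values was not tested. An array signal has no true 0, so no marker can be called absent.

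The genes most like each changed member were found by the root mean square difference of their centred values over the 5 arrays. Closest to Saa3 were Blvrb, Sat1 and Abcb1b, with differences of 0.13, 0.15 and 0.16, which rose by 1.82, 1.72 and 1.68. Closest to Cp were Jpt1, Ctdspl and Fads1, at 0.05, 0.07 and 0.10, which changed by -1.30, -1.23 and -1.35. Closest to Socs3 were Hmgb3, Creld2 and Cadm1, at 0.05, 0.06 and 0.06, which changed by -1.08, -1.03 and -1.01. With 5 arrays in 2 groups, this likeness mostly describes the size of the group difference.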

How the data were processed

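Total RNA of ID8 cells was measured on 5 Affymetrix mouse arrays. Per the submitters' processing notes, the authors used Affymetrix Expression Console. No version or summarisation method is named in the labels. The deposited values are log2 signals, as judged from their range, with 1 value per probe set and array and medians of 7.4 to 7.47, and were used without further normalization. They carry no detection call, so background is unknown and the number of arrays limits the precision.

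Of 22690 probe sets, 64 were controls. The platform annotation gave 1 gene to 20380 and several to 691, and left 1555 unnamed. Through their Entrez identifiers, 20351 matched RefSeq (GRCm38.p6), which changed 0 symbols. For each of 12393 genes the probe set of highest mean signal was kept. The comparison used limma 3.58.1 (R 4.3.3), with lmFit followed by eBayes and no covariate, as a two-sided test (Benjamini-Hochberg adjustment over all genes, or over all 22626 probe sets, threshold 0.05, 3 residual and 1.33 prior degrees of freedom). The method was run on simulated data with independent errors on each array. The simulation held no array that stands apart as FBS replicate 3 does, so it cannot vouch for the calls here.

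The members, lists and tests were chosen with earlier results of these data known. Named genes are all members, up to 3 genes a list that passed, taken by size of change (or the one with the smallest p where none passed), and for each changed member the 3 genes with the most similar values. Others named were chosen after their values were seen. Alternatives were other scalings, filters, probe set rules, weights, a replicate block and leaving out each array.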

Additional observations from a re-analysis of the deposited data

How the results depend on the processing

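Leaving out 1 array at a time gave 0 to 2494 changed genes, where all 5 arrays gave 654. The counts were 0 to 6 of the 9 members (3 with all arrays), 0 to 12 of their 22 probe sets (7) and 0 to 35 of the 132 other pathway genes (10). Each highest count came without FBS replicate 3, and each was 0 without FBS replicate 1 or without FBS replicate 2. A fit without an ascites array keeps 1 ascites array, so the spread in that group goes unmeasured. With FBS replicates 1 and 2 averaged as 1 sample, 0 genes, 0 members, 0 member probe sets and 0 pathway genes passed (2128, 4, 10 and 25 at an unadjusted p below 0.05). With array weights 2612 genes passed, with 7 members, 14 member probe sets and 35 pathway genes. Centring each array on its median gave 16 pathway genes. With a replicate block, 0 genes, 0 members, 0 member probe sets and 0 pathway genes passed (1891, 5, 11 and 20 unadjusted). Only FBS has a replicate 1, so the block takes up that array and leaves fewer residual degrees of freedom. The counts of 0 cannot be told apart from that loss. In that fit Saa3, Cp and Socs3 changed by 1.99, -1.24 and -1.09. Deviations of same-numbered arrays from their group means correlated at 0.03 and 0.04 over genes, and only 2 numbers are shared. With 2 ascites arrays, whose deviations mirror each other, these correlations cannot show whether arrays were paired. The labels state no pairing, so the arrays were not taken as paired.

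Over the arrays left out, the change ranged from 1.81 to 2.15 for Saa3, from -1.34 to -1.10 for Cp and from -1.23 to -1.05 for Socs3, with adjusted p of 0.0144 to 0.157, 0.0157 to 0.140 and 0.0114 to 0.166. Each kept its direction under every alternative listed here. That of Cfb turned, with -0.11 to 0.10 over the arrays left out, 0.01 with centring and 0.03 with array weights. The causes were not tested.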

Other observations

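The 2 ascites arrays differed from each other most in Egr1 and Lcn2. By the size of the difference between ascites replicates 3 and 2, Lcn2 ranked 2nd of 12393 genes (2.40), behind Egr1, a growth factor induced transcription factor (2.65). Egr1 read 9.11 and 11.76 on ascites replicates 2 and 3, against 13.88, 13.87 and 12.0 in FBS, so it was lower in ascites where Lcn2 was higher. Sprr2f ranked 3rd and was lower on ascites replicate 3 (-2.24). Avil, the gene of the actin-severing protein advillin, differed by 2.16 between the ascites arrays and Tenm4, a teneurin gene, by 2.06. The next ranks went both ways, with Plagl1 at 1.85 and Fgfbp1 at -1.83. For Saa3 the same difference was -0.34. Fos, a STAT3 target in the lists, was 11.59 and 12.84 on ascites replicates 2 and 3, against 14.10, 14.16 and 13.27 in FBS. These genes were chosen after their values were seen, and with 2 ascites arrays no test of the difference was made.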
